A study of Homo sapiens with 17 samples.

Results

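Transcripts of 9 genes that encode subunits of the Polycomb repressive complexes were followed in human fibroblasts without senescence, in senescence, and in senescence with knockdown of SMARCA4. The genes were taken by name as EZH2, EZH1, SUZ12 and EED of Polycomb repressive complex 2 (PRC2) and BMI1, CBX2, CBX6, CBX7 and CBX8 of Polycomb repressive complex 1 (PRC1). They are 9 of the 62754 gene rows in each count table, and all 9 passed the filter on low counts that left 19473 genes for testing. The cells were IMR90 ER:RAS, lung fibroblasts carrying a retroviral fusion of oncogenic RAS to an estrogen receptor domain, which 4-hydroxytamoxifen (4OHT) switches on to start oncogene-induced senescence. Poly(A)-selected RNA was sequenced in 17 libraries taken 7 days after treatment. In the DMSO siNT group (n = 5) cells received a non-targeting siRNA and the solvent, in the 4OHT siNT group (n = 6) the same kind of siRNA and 4OHT, and in the 4OHT siSMARCA4 group (n = 6) an siRNA against SMARCA4 and 4OHT. All groups share the ER:RAS transgene and the transfection, and no group combines DMSO with siSMARCA4. The labels also give every library an siRNA number, 2 or 4, and a tag ending in V or VM that they do not explain. They do not say whether libraries of a group came from separate cultures, so p-values here measure the spread between libraries, which may be technical.

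Polycomb complexes keep developmental and cell cycle genes silent. PRC2 places methyl groups on lysine 27 of histone H3 through EZH2 or its paralog EZH1, which work only when bound to SUZ12 and EED. EZH2 is the main enzyme of dividing cells, whereas EZH1 is also found in resting ones. Canonical PRC1 reads this mark through a CBX protein and places ubiquitin on histone H2A through RING1 or RNF2, with BMI1 or another PCGF protein as partner. In fibroblasts a well-known target is the CDKN2A and CDKN2B locus, which encodes inhibitors of the cell cycle, and the SWI/SNF remodeling complex, of which SMARCA4 is an ATPase, is known to oppose Polycomb.

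Libraries held 39109479 to 68978119 counts. Levels are given in CPM, which scales each library's counts to 1 common total, here after adjustment by trimmed mean of M values (TMM). SMARCA4 ranged from 168 to 215 CPM in DMSO siNT. It was lower in each of the 6 siSMARCA4 libraries (68.4 to 127 CPM) than in any 4OHT siNT library (253 to 286 CPM), with 32.9% of the transcript left (log2 fold change -1.61 with an SE of 0.13, edgeR adjusted p 5.13e-07). Of 8 fibroblast markers, 7 fell in 4OHT siNT against DMSO siNT, beside 27.4% of tested genes. The same number fell with siSMARCA4 against siNT, beside 13.8% of tested genes. The summed level of the 8 ranged from 22850 to 27450 CPM in DMSO siNT, 13350 to 17450 in 4OHT siNT and 7496 to 10780 in 4OHT siSMARCA4. CDH1, CDH5, PTPRC and CD3E, among the markers of epithelial, endothelial and immune cells, had group means of 0.0629 CPM or less. EPCAM, another epithelial marker, had means of 0.8699 CPM in DMSO siNT, 0.3865 in 4OHT siNT and 0.2134 in 4OHT siSMARCA4. It fell in 4OHT siNT against DMSO siNT (edgeR adjusted p 0.000876). The summed epithelial list, nearly all of it KRT8 and KRT18, ran from 71.0 to 92.8 CPM in DMSO siNT, 65.3 to 81.8 in 4OHT siNT and 35.3 to 58.4 in 4OHT siSMARCA4, and the endothelial list from 0.798 to 1.83, 3.52 to 5.54 and 1.73 to 4.25 CPM. PECAM1 and VWF of the endothelial list rose with 4OHT, to 0.936 and 3.76 CPM, and PECAM1 passed the filter only through the groups with 4OHT. Of the immune list, which summed to between 19.96 and 30.4 CPM over all libraries, nearly all was CD68, with group means of 22.5 to 25.9 CPM, which did not pass the test. The part of these genes in the results that follow was not tested. The VM tag was carried by 3 of 5 libraries of DMSO siNT, by 3 of 6 of 4OHT siSMARCA4 and by each of the 6 of 4OHT siNT.

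To ask which Polycomb genes differ in oncogene-induced senescence, 4OHT siNT was compared with DMSO siNT. EZH2, CBX2 and BMI1 fell and CBX6 rose, and the other 5 did not pass the test. A call is an edgeR adjusted p under 0.05 over all tested genes, and fold changes are on the log2 scale. The 3 members that fell and the 1 that rose stand beside backgrounds of 27.4% of tested genes lower and 27% higher. Groups did not overlap for 3 members, EZH2, CBX2 and CBX6, beside 39.6% of tested genes. The median log2 fold change was -0.25 over the 9 members and 0.00 over all tested genes. In bulk RNA, fewer cells with a transcript and less of it per cell cannot be told apart.

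**Figure D1:**
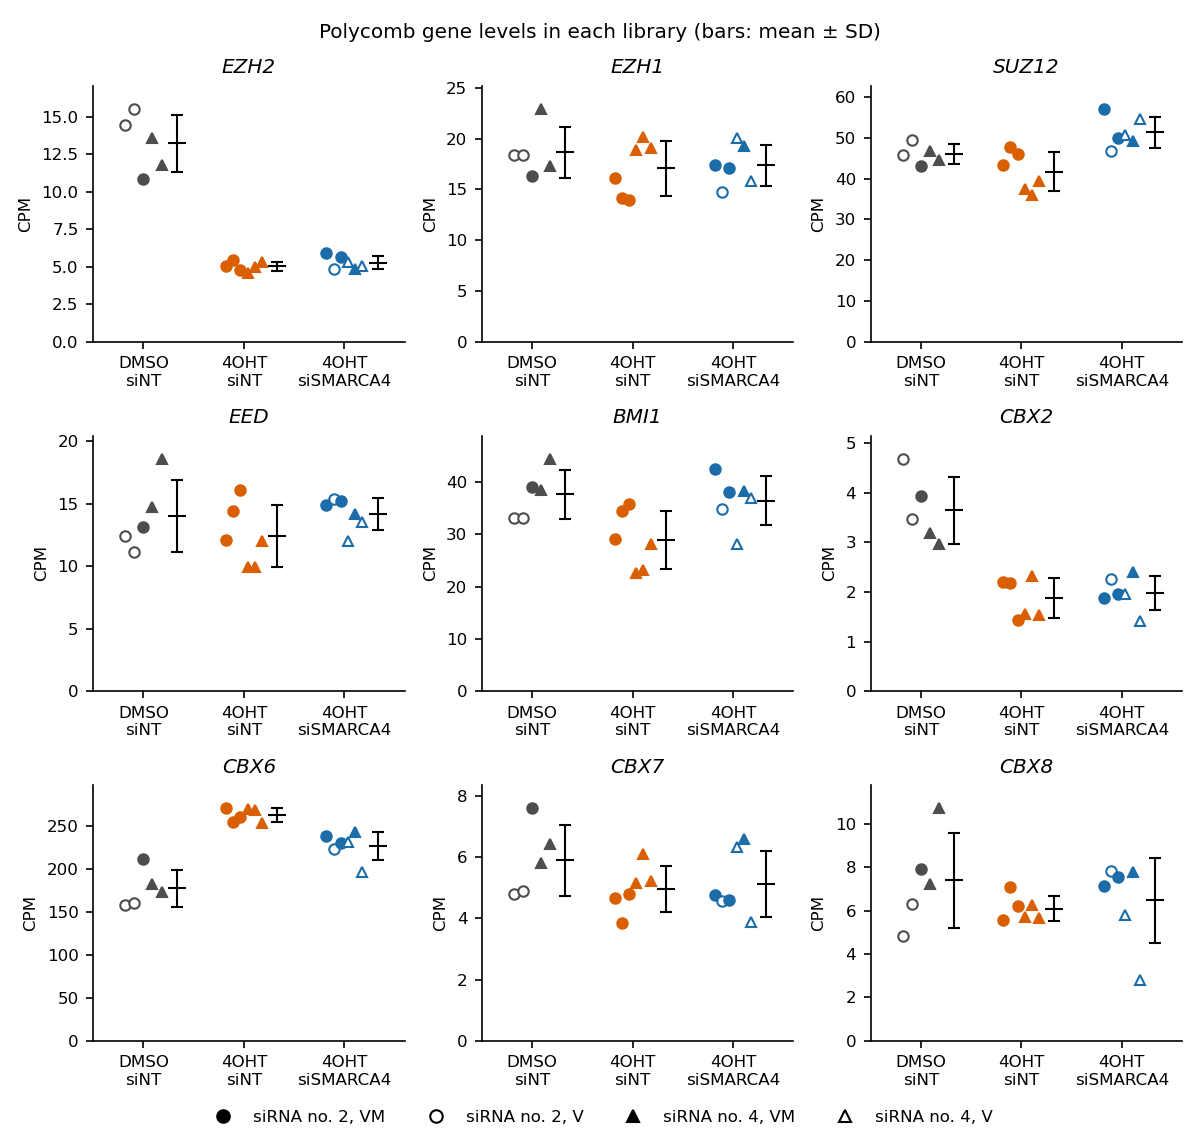
TMM-scaled CPM of the 9 Polycomb genes in each of the 17 libraries, by group. Circles are siRNA number 2 and triangles number 4, filled for VM and open for V, and bars give mean ± SD. EZH2 and CBX2 lie lower in all 12 libraries with 4OHT than in the 5 with DMSO, and CBX6 lies higher in all 6 of the 4OHT siNT libraries.

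EZH2 (ENSG00000106462; GRCh38 chr7:148807257-148884321, minus strand) showed the largest fold change of the members. Its 5 DMSO siNT libraries held 14.5, 15.5, 10.9, 13.6 and 11.8 CPM. The 6 libraries of 4OHT siNT held 4.59 CPM at the lowest, a median of 4.99 and 5.43 at the highest, and those of 4OHT siSMARCA4 4.85, 5.19 and 5.88. The DMSO libraries were all higher than all 12 libraries with 4OHT, and the groups with and without siSMARCA4 overlapped. EZH2 fell to 37.9% of its DMSO level in 4OHT siNT (log2 fold change -1.40, SE 0.10, and adjusted p 7.29e-10 in edgeR) and to 39.8% in 4OHT siSMARCA4 (-1.33, SE 0.10, adjusted p 1.09e-09). Between the groups with 4OHT the difference was 0.07 (95% interval -0.13 to 0.27, adjusted p 0.653). These values rest on 183 to 828 counts per library. Within the VM libraries alone the log2 fold change in 4OHT siNT was -1.29 (adjusted p 3.1e-07).

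EZH1 (ENSG00000108799; chr17:42700275-42745049, minus strand), the other PRC2 methyltransferase, had overlapping levels in all groups. The DMSO siNT libraries held 18.4, 18.4, 16.4, 22.9 and 17.3 CPM. The lowest, median and highest values were 13.9, 17.5 and 20.2 CPM in 4OHT siNT and 14.7, 17.2 and 20.1 CPM in 4OHT siSMARCA4. The log2 differences were -0.13 (95% interval -0.37 to 0.11) for 4OHT siNT against DMSO siNT and 0.03 (-0.20 to 0.26) for siSMARCA4 against siNT, and neither passed the test. With siRNA number 2 alone the first was -0.30 and passed (adjusted p 0.0312), but with all libraries in 1 model it was -0.26 for that number and did not (adjusted p 0.081). The interval in 4OHT siNT does not reach the fall of EZH2.

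Set per kilobase of transcript, which allows the paralogs to be compared, the log2 ratio of EZH2 to EZH1 was -1.12 ± 0.20 (SD, n = 5) in DMSO siNT, -2.38 ± 0.26 (n = 6) in 4OHT siNT and -2.35 ± 0.18 (n = 6) in 4OHT siSMARCA4. Every DMSO library lay above every library with 4OHT, from -1.38 to -0.87 against -2.66 to -2.01. These ratios divide by the union of annotated exons, 10774 bases for EZH2 and 6988 for EZH1. With the canonical transcripts of 2654 and 4633 bases the ratio was 0.31 in DMSO siNT, -0.95 in 4OHT siNT and -0.92 in 4OHT siSMARCA4, and EZH2 made 55.3% ± 3.46 of the pair in DMSO and 34.2% ± 4.13 in 4OHT siNT. Which enzyme was the more abundant in DMSO therefore depends on the length used, whereas in both 4OHT groups EZH1 was higher under either length. Group differences are the same under both, because the lengths cancel.

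The stretches around the transcription starts of 4 members are shown because these genes behaved differently, EZH2 falling and CBX6 rising with 4OHT, SUZ12 rising with siSMARCA4, and EZH1 not called in either contrast. Each runs from 250 bases before to 25 bases after the start that RefSeq annotates on GRCh38.p14, 5′ to 3′ on the gene's strand. Capitals mark matches on either strand to the E2F letters TTTCGCGC or TTTGGCGC, the CHR letters TTTGAA or TTCGAA, and the CCAAT box, 3 sequence elements common before cell cycle genes.
EZH2 (chr7:148884267-148884541, minus strand): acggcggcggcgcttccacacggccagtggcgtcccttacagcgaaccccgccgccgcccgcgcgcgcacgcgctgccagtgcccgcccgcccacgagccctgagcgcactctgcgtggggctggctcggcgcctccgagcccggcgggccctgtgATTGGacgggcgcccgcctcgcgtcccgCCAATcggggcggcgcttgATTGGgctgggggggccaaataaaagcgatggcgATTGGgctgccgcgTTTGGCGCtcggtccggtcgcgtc
EZH1 (chr17:42745016-42745290, minus strand): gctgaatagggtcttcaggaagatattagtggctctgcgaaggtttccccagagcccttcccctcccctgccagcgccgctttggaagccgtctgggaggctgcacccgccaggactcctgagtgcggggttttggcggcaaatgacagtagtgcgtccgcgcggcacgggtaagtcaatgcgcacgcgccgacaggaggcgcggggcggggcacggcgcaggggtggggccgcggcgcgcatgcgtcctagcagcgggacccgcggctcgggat
SUZ12 (chr17:31936757-31937031, plus strand): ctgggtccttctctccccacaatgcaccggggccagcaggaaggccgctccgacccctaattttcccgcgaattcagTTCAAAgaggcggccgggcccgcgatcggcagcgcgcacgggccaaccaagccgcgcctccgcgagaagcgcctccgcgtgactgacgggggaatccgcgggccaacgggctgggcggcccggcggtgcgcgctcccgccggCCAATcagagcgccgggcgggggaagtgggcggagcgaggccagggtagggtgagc
CBX6 (chr22:38872192-38872466, minus strand): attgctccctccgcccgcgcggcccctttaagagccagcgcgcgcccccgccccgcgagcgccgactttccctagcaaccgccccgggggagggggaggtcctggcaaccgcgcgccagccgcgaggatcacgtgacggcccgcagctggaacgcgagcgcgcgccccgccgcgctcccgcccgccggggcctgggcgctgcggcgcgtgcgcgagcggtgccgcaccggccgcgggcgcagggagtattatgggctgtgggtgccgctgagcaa

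The EZH2 window holds 1 E2F match, at base 252, the base after the annotated start, and 4 CCAAT matches, which begin at bases 157, 185, 204 and 238. SUZ12 holds 1 CHR match and 1 CCAAT match, and neither EZH1 nor CBX6 holds a match to any of the 3 as searched. Other forms of the E2F letters were not searched, among them TTTCCCGC, which the SUZ12 window holds in lower case. Over windows of 300 bases, the E2F letters occur in 1.15% of all 35116 annotated starts, the CHR letters in 16.4% and CCAAT in 34.6%, and over the starts of tested genes in 1.74%, 12.2% and 34.4%. Windows were found for 7 of the 9 members, all but CBX2 and CBX8, and EZH2 and BMI1 had 2 each. The second EZH2 window, and those of BMI1, held no match to the 3 elements as searched, and CBX7 and EED held 1 CCAAT match each. Of the other letters searched, the GC box GGGCGG stands in 45% of all windows and 63.9% of those of tested genes, and in every window of the 7 members except that of EED. TATAAA stands in 11.5% and 6.85%, and in no window of the 7. A match describes the letters only, and binding was not measured.

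Over all 17 libraries the genes whose log2 CPM followed EZH2 most closely were KIF23 (Pearson r 0.993), USP1 (0.991) and ARHGAP11A (0.991). Their promoter windows held no match to the E2F letters searched. KIF23 and USP1 held CHR and CCAAT matches, and ARHGAP11A held neither. KIF23 is a kinesin of cell division, and USP1 a deubiquitinase of DNA repair. KIF23 had mean levels of 35.1 CPM in DMSO siNT, 7.34 in 4OHT siNT and 8.66 in 4OHT siSMARCA4. The nearest to EZH1 were WASF2 (0.839), ITPR3 (0.835) and NRBP2 (0.834). These r values are descriptions over libraries of 3 groups, and those of EZH2 include the step between DMSO and 4OHT. Within groups, the Pearson r of EZH2 with the mean of 10 proliferation genes was 0.37 in 4OHT siNT (Spearman 0.31) and 0.58 in 4OHT siSMARCA4 (Spearman 0.43), each over 6 libraries.

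SUZ12 (ENSG00000178691; chr17:31937007-32001038, plus strand), the scaffold of PRC2, rose with siSMARCA4. Its DMSO siNT libraries held 45.96, 49.6, 43.2, 46.9 and 44.5 CPM. In 4OHT siNT the lowest, median and highest were 36.0, 41.4 and 47.8 CPM, and in 4OHT siSMARCA4 46.9, 50.4 and 57.1 CPM. Only the top 4OHT siNT library reached into the siSMARCA4 range. The log2 fold change of siSMARCA4 against siNT was 0.30 (SE 0.08, edgeR adjusted p 0.00761). With the libraries of siRNA number 2 alone, in siNT as well, it was 0.21 and not called (adjusted p 0.135). The difference of 4OHT siNT from DMSO siNT was -0.14 (95% interval -0.31 to 0.02, adjusted p 0.139). Against DMSO siNT, 4OHT siSMARCA4 stood at 0.16 (-0.01 to 0.33, adjusted p 0.0973).

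EED (ENSG00000074266; chr11:86201212-86278813, plus strand) binds the methylated histone and completes the PRC2 core. Its DMSO siNT libraries held 12.4, 11.1, 13.1, 14.8 and 18.6 CPM. The lowest, median and highest were 9.90, 12.0 and 16.1 CPM in 4OHT siNT and 12.0, 14.5 and 15.4 CPM in 4OHT siSMARCA4. The groups overlapped, and no contrast between them passed the test (-0.18, 95% interval -0.47 to 0.11, for 4OHT siNT against DMSO siNT, and 0.20, -0.08 to 0.47, for siSMARCA4 against siNT). The histone-binding subunits of the PRC2 core fell in 4OHT siNT, RBBP7 at a log2 fold change of -0.46 (SE 0.06, adjusted p 1.62e-06) and RBBP4 at -0.18 (SE 0.07, adjusted p 0.0296).

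BMI1 (ENSG00000168283; chr10:22321099-22331484, plus strand), the PCGF subunit of canonical PRC1, is known for holding the CDKN2A locus silent. Its DMSO siNT libraries held 33.03, 33.1, 39.02, 38.5 and 44.4 CPM. The lowest, median and highest were 22.6, 28.6 and 35.8 CPM in 4OHT siNT and 28.1, 37.5 and 42.4 CPM in 4OHT siSMARCA4. Ranges overlapped between all groups. BMI1 fell to 76.7% of its DMSO level in 4OHT siNT (log2 fold change -0.38, SE 0.13, edgeR adjusted p 0.0158). With siRNA number 2 alone the value was -0.12 and the call was lost (adjusted p 0.38). With siSMARCA4 it stood 0.34 above siNT (SE 0.12, 95% interval 0.08 to 0.59), which missed the threshold at an adjusted p of 0.0518 and passed it in 11 of 29 alternatives, 0.0354 in DESeq2 among them. The readthrough gene COMMD3-BMI1 overlaps BMI1 on the same strand, so reads could be divided between the 2 rows. COMMD3-BMI1 had group means of 18.8 to 21.6 CPM and passed no test (-0.07 and 0.20 in the same contrasts), and COMMD3 rose with siSMARCA4 by 0.49 (SE 0.13, adjusted p 0.011). Reads of a member and its pseudogene could be divided in the same way. SUZ12P1 had group means of 1.49 to 1.64 CPM and passed no test, and EZH2P1 had 1 count over all 17 libraries.

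The CBX proteins bind the methylated histone for canonical PRC1, 1 at a time, and their levels diverged. CBX2 (ENSG00000173894; chr17:79778148-79787983, plus strand) held 4.68, 3.46, 3.92, 3.18 and 2.97 CPM in DMSO siNT. The lowest, median and highest were 1.44, 1.87 and 2.33 CPM in 4OHT siNT and 1.41, 1.95 and 2.40 CPM in 4OHT siSMARCA4. As with EZH2, the DMSO libraries all lay above those with 4OHT. CBX2 fell to 51.6% of its DMSO level in 4OHT siNT (log2 fold change -0.96, SE 0.17, adjusted p 0.000101) and to 54.2% in 4OHT siSMARCA4 (-0.88, SE 0.17, adjusted p 0.000207), a call that was lost with siRNA number 4 alone (-0.69, adjusted p 0.0746). Between the 4OHT groups it differed by 0.07 (95% interval -0.28 to 0.42). CBX2 was the least counted member, with 55 to 268 counts per library.

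CBX6 (ENSG00000183741; chr22:38861422-38872249, minus strand), the most abundant of the 9, moved the other way. Its DMSO siNT libraries held 159, 161, 212, 183 and 173 CPM. The lowest, median and highest were 253, 264 and 271 CPM in 4OHT siNT and 197, 231 and 243 CPM in 4OHT siSMARCA4. The 4OHT siNT libraries, which all carry the VM tag, lay above every library of the other groups. In DMSO siNT the V libraries held 159 and 161 CPM and the VM libraries 173 to 212 CPM. With siSMARCA4 the V libraries held 223.6, 231.1 and 196.5 CPM and the VM libraries 238.1, 230.5 and 242.6 CPM. Those V libraries held 82.7 to 127 CPM of SMARCA4, and those VM libraries 68.4 to 78.3 CPM. CBX6 rose 1.48-fold in 4OHT siNT (log2 fold change 0.57, SE 0.08, adjusted p 4.48e-06), a call kept in all 29 alternatives, the VM libraries alone among them. It stood at 0.35 above DMSO in 4OHT siSMARCA4 (SE 0.08, adjusted p 0.000614), which did not pass with siRNA number 4 alone (0.32, adjusted p 0.077). With siSMARCA4 it fell by 0.21 against siNT on the log2 scale (SE 0.07, adjusted p 0.0412). That small fall lost its call in 18 of 29 alternatives, where log2 values ran from -0.23 to -0.12 over all 29, and was -0.13 (adjusted p 0.144) within the VM libraries.

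CBX7 (ENSG00000100307; chr22:39120167-39152680, minus strand), like BMI1 a known brake on CDKN2A, held 4.78, 4.90, 7.58, 5.79 and 6.41 CPM in DMSO siNT. Its lowest, median and highest levels were 3.85, 4.97 and 6.10 CPM in 4OHT siNT and 3.89, 4.69 and 6.58 CPM in 4OHT siSMARCA4. CBX8 (ENSG00000141570; chr17:79792132-79801683, minus strand) held 4.85, 6.29, 7.91, 7.22 and 10.7 CPM in DMSO siNT, 5.58 to 7.10 CPM (median 5.97) in 4OHT siNT and 2.78 to 7.83 CPM (median 7.37) in 4OHT siSMARCA4. Groups overlapped for both genes and no contrast passed the test. In 4OHT siNT against DMSO siNT the differences were -0.25 (95% interval -0.58 to 0.08) for CBX7 and -0.28 (-0.74 to 0.17) for CBX8. Within the VM libraries alone, which leave 3 DMSO libraries, both passed, at -0.44 (adjusted p 0.0274) and -0.53 (adjusted p 0.00382). CBX2 and CBX8 are neighbors on chromosome 17, and CBX6 and CBX7 lie on chromosome 22. In each of these pairs 1 gene was called and the other was not.

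**Figure D2:**
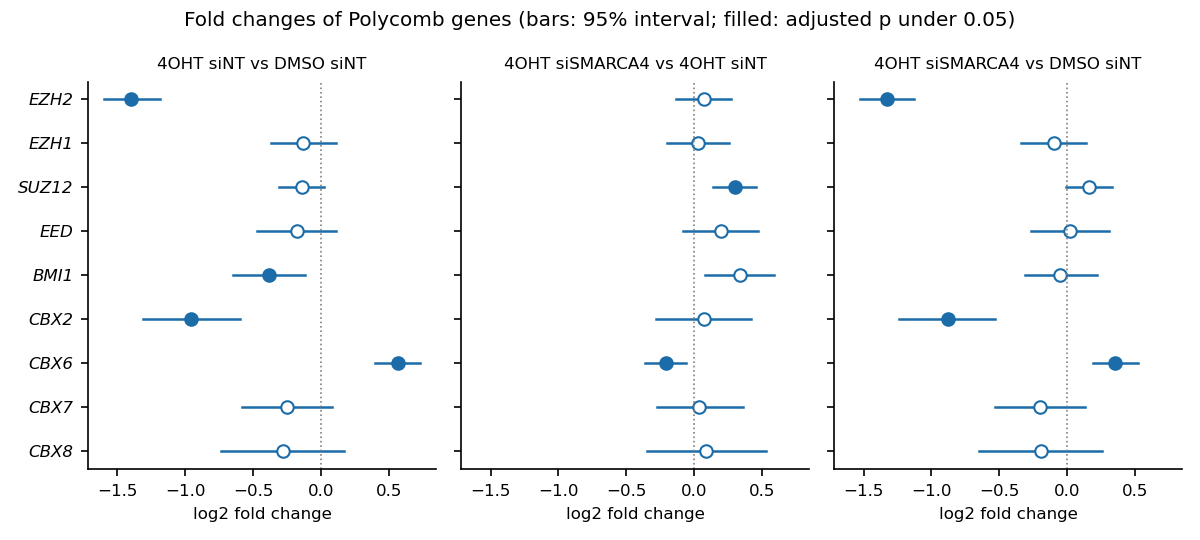
Log2 fold changes of the 9 Polycomb genes in 3 contrasts from 1 edgeR model, with 95% intervals as bars and filled points for an adjusted p under 0.05. EZH2 (-1.40 and -1.33) and CBX2 lie left of 0 in both contrasts against DMSO and near 0 between the 4OHT groups, where SUZ12 (0.30) and CBX6 (-0.21) are filled.

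The composition of the CBX family was described as the share of each gene among CBX2, CBX6, CBX7 and CBX8, per kilobase of exon union and with no test. CBX6 took 87.3% ± 1.59 in DMSO siNT (SD, n = 5), 93.01% ± 0.48 in 4OHT siNT and 91.7% ± 1.45 in 4OHT siSMARCA4 (n = 6 each). CBX2 made 2.57% ± 0.66 in DMSO siNT, 0.933% ± 0.190 in 4OHT siNT and 1.12% ± 0.13 in 4OHT siSMARCA4, and CBX7 3.08% ± 0.25, 1.88% ± 0.26 and 2.2% ± 0.35. The CBX8 share was 7.02% ± 1.84, 4.18% ± 0.45 and 4.995% ± 1.31. The 4 shares sum to the whole and CBX6 makes most of it, so the other 3 shares go down when CBX6 rises. On their own levels CBX7 and CBX8 passed no test over all libraries. Within the VM libraries alone both were lower in 4OHT siNT than in DMSO siNT (edgeR adjusted p 0.0274 and 0.00382). In 4OHT siSMARCA4, 1 library (siRNA number 4, tag 3V) stood at 94.5% CBX6 while the other 5 ran from 90.5% to 91.8%.

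**Figure D3:**
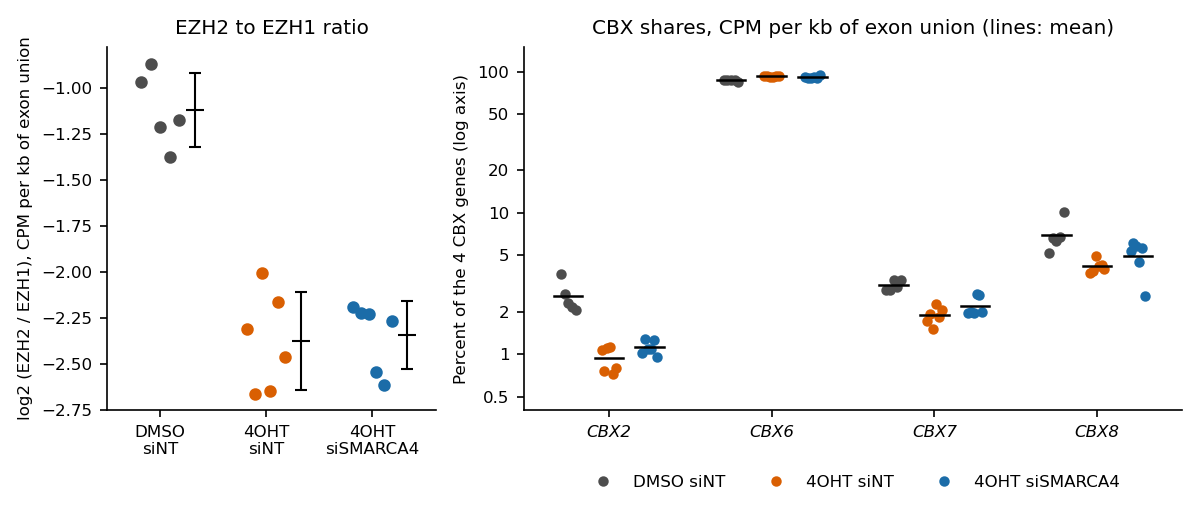
Left, log2 ratio of EZH2 to EZH1 in each library (CPM per kilobase of exon union), with mean ± SD. Right, each CBX gene as a percent of the 4 (log axis), with lines at group means. The ratio steps from -1.12 in DMSO siNT to -2.38 and -2.35 in the 4OHT groups, and CBX2 drops from 2.57% to 0.933% and 1.12%.

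Compared per kilobase, which is needed to rank genes, CBX6 was the most abundant member in every group (22.2 ± 2.72, 32.9 ± 0.98 and 28.4 ± 2.05 CPM per kilobase in DMSO siNT, 4OHT siNT and 4OHT siSMARCA4), without overlap with the next. BMI1 and SUZ12 followed and overlapped each other (8.56 ± 1.08 and 7.03 ± 0.37 in DMSO siNT). EZH1, EED and CBX8 came next, at 2.67 ± 0.36, 2.00 ± 0.41 and 1.79 ± 0.53, each overlapping its neighbor. EZH2 (1.23 ± 0.18) stood above CBX7 (0.789 ± 0.155) and CBX2 (0.642 ± 0.120) in DMSO siNT, where it overlapped CBX8 and CBX7. In 4OHT siNT EZH2 was at rank 8 of 9, at 0.4658 ± 0.029, below CBX7 (0.665 ± 0.0999) and above CBX2 (0.3302 ± 0.071) with no overlap on either side. By canonical transcript length EZH2 was at rank 5 in DMSO siNT and 6 with 4OHT, and CBX6 was at rank 1. By that length EED stood above EZH1 in every group, without overlap in both 4OHT groups. Means were 6.70 and 4.03 CPM per kilobase in DMSO siNT and 5.94 and 3.685 in 4OHT siNT.

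To ask what SMARCA4 knockdown does to these genes in senescence, 4OHT siSMARCA4 was compared with 4OHT siNT. Of the 9 members, SUZ12 rose and CBX6 fell, beside backgrounds of 10.4% of tested genes higher and 13.8% lower. Of the 9, only CBX6 had groups that did not overlap, beside 12% of tested genes. EZH2 and CBX2 differed by 0.07 each, with the intervals given above. The median log2 fold change was 0.07 over the members and -0.02 over all tested genes. In 4OHT siSMARCA4 against DMSO siNT, 2 members were lower (EZH2 and CBX2) and 1 higher (CBX6), beside 28.6% lower and 26.5% higher, and EZH2 and CBX2 did not overlap, beside 36.3% of tested genes. The 3 contrasts share libraries in pairs, so their values are given side by side and are not independent.

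Members were also compared between the siRNA numbers within 4OHT siNT, where libraries of number 2 held 43.5 to 47.8 CPM of SUZ12 and those of number 4 36.0 to 39.4 CPM. For BMI1 the ranges were 29.2 to 35.8 and 22.6 to 28.1 CPM, for EED 12.1 to 16.1 and 9.90 to 12.0 CPM, and for EZH1 13.9 to 16.2 and 18.9 to 20.2 CPM. These 4 genes and CBX7 did not overlap between the numbers, 3 libraries against 3, which was so for 36.7% of all tested genes. None was called in edgeR (adjusted p 0.0709 for SUZ12, 0.0744 for BMI1, 0.0666 for EED, 0.0686 for EZH1 and 0.376 for CBX7), beside 4.68% of tested genes, while 4 members had an unadjusted p under 0.05, as had 22.3% of tested genes. The other 4 members overlapped there. In DMSO siNT, with 3 libraries of number 2 against 2 of number 4, EED and CBX2 did not overlap, beside 33.1% of tested genes. None of the 9 was called there, beside 0.108% of tested genes, and EED stood 0.45 higher under number 4 (adjusted p 0.167), against -0.42 in 4OHT siNT.

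The contrast of 4OHT siNT with DMSO siNT was then taken within each number. EED was 0.21 higher in 4OHT among number 2 libraries (adjusted p 0.166) and fell by 0.65 among number 4 libraries (adjusted p 0.00106), and the difference of 0.87 (SE 0.19) passed the edgeR test with an adjusted p of 0.0397. EED was the only member called for this difference, beside 2.11% of tested genes. For BMI1 the values were -0.08 (adjusted p 0.626) and -0.75 (adjusted p 0.000544), with a difference of 0.67 (SE 0.20, adjusted p 0.065). SUZ12 stood at -0.02 under number 2 and -0.28 under number 4 (adjusted p 0.892 and 0.0238), and this difference of 0.26 did not pass (adjusted p 0.207). EZH2 fell under both numbers (-1.42 and -1.36), as did CBX2 (-1.05 and -0.76), and CBX6 rose by 0.56 and 0.57. In DMSO siNT, 2 of the 3 number 2 libraries carry the V tag and both number 4 libraries the VM tag, so number and tag are partly confounded there.

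Under siSMARCA4 the numbers stand for separate siRNAs against the gene. Number 2 changed SMARCA4 by -1.63 and number 4 by -1.58 on the log2 scale. Each value was taken against the siNT libraries of the same number, so the baseline changes with the number. The SUZ12 difference from siNT was 0.17 (adjusted p 0.202) for number 2 and 0.46 (adjusted p 0.00342) for number 4. That of BMI1 was 0.21 (adjusted p 0.283) and 0.48 (adjusted p 0.0227). The test of the difference between numbers called 0 of the 9 members in edgeR (SUZ12 adjusted p 0.266), beside 1.06% of tested genes, with 1 member at an unadjusted p under 0.05, beside 15.5% of tested genes. SUZ12 averaged 51.3 and 51.6 CPM in the siSMARCA4 libraries of numbers 2 and 4, and 45.7 and 37.6 CPM in those of siNT. BMI1 averaged 38.4 and 34.4 CPM with siSMARCA4, and 33.1 and 24.6 CPM with siNT. For both genes the larger difference under number 4 thus goes with a lower siNT level, not a higher siSMARCA4 level.

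The remaining genes of both complexes were read in 4OHT siNT against DMSO siNT. With the 9 members they make 46 genes, of which 45 were tested, 17 rose and 13 fell, beside 27% of all tested genes higher and 27.4% lower, with a median of -0.05. Among the PRC2 accessory subunits 3 rose and 2 fell of 7 tested. JARID2, which helps recruit PRC2, rose by 1.27 (SE 0.10, adjusted p 5.47e-09) from 10.4 to 25.04 CPM, and EPOP by 1.23 (SE 0.30, adjusted p 0.00194). PHF19, a Polycomb-like protein of dividing cells, fell by 0.59 (SE 0.08, adjusted p 2.3e-06) and AEBP2 fell by 0.36 (adjusted p 0.0015). With siSMARCA4 none of the 7 passed the test against siNT, beside 10.4% of tested genes higher and 13.8% lower.

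Of 9 other canonical PRC1 genes, 2 rose and 3 fell in 4OHT siNT. These shares were near the backgrounds of 27% of tested genes higher and 27.4% lower. PHC2, a Polyhomeotic protein, rose from 166 to 292 CPM (log2 fold change 0.82, SE 0.06, adjusted p 1.01e-09) and PCGF2, a paralog of BMI1, by 0.23 (SE 0.06, adjusted p 0.00496). SCML2 fell by 2.58 (SE 0.25) to 0.233 CPM and SCMH1 fell by 1.19 (SE 0.10) to 9.52 CPM. RNF2, the main ubiquitin ligase of PRC1, fell by 0.54 (SE 0.07, adjusted p 5.55e-06) and rose by 0.35 with siSMARCA4 (SE 0.07, adjusted p 0.00204). SCML2 rose with siSMARCA4 by 0.74 (adjusted p 0.0397). These were the 2 calls among the 9 in that contrast, beside 10.4% of tested genes higher and 13.8% lower.

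In variant PRC1, which acts without a CBX subunit, 11 of 18 genes rose and 3 fell in 4OHT siNT, beside 27% and 27.4% of tested genes. The largest rises were those of BCORL1 (0.81, SE 0.14) and BCOR (0.79, SE 0.13), corepressors of the PCGF1 complex. PCGF5 fell by 1.66 (SE 0.13), from 30.9 to 9.75 CPM, and AUTS2, a subunit of the PCGF3 and PCGF5 complexes, fell by 0.71 (SE 0.14). With siSMARCA4 3 of the 18 rose and 3 fell, beside 10.4% and 13.8%. PCGF6 rose by 0.42 (SE 0.09, adjusted p 0.00287) and E2F6 by 0.37 (SE 0.07, adjusted p 0.00069), and BCOR fell by 0.77 (SE 0.13, adjusted p 0.000321), to 13.1 CPM against 12.9 in DMSO siNT. AUTS2 fell by 0.59 (adjusted p 0.00487).

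Of 12 genes for enzymes that remove the Polycomb marks and for partners of these enzymes, 4 rose and none fell in 4OHT siNT, beside 27% and 27.4% of tested genes, so the share that rose was near the background. KDM6B, an H3K27 demethylase, rose 3.67-fold (log2 fold change 1.87, SE 0.14, adjusted p 2.79e-09), while its paralog KDM6A differed by -0.06 (95% interval -0.23 to 0.11). MBD6, a partner of the BAP1 deubiquitinase, rose by 0.82 (SE 0.10). With siSMARCA4, KDM6B fell by 0.40 (SE 0.13, adjusted p 0.0305). It was the only call among the 12, beside 10.4% of tested genes higher and 13.8% lower.

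**Figure D4:**
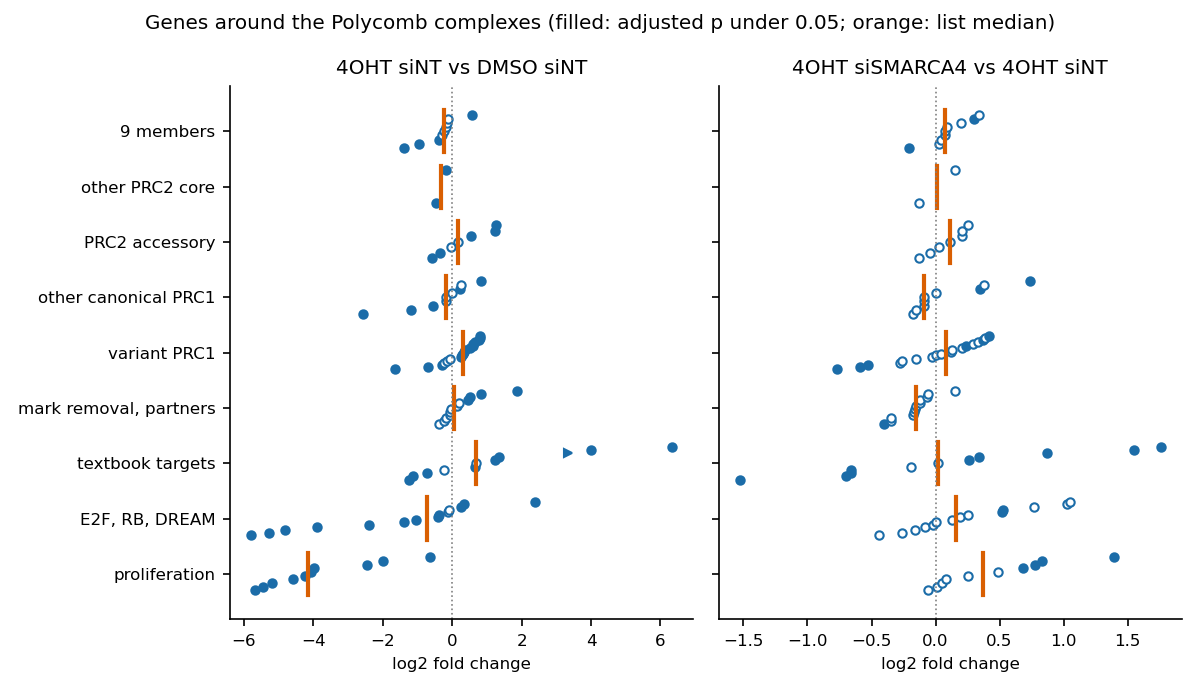
Log2 fold changes of the tested genes of each list in 4OHT siNT against DMSO siNT and in 4OHT siSMARCA4 against 4OHT siNT, filled for an adjusted p under 0.05, with list medians in orange. The triangle is SOX17, drawn at its lower bound of 3.34. Proliferation genes lie left of 0 with 4OHT (median -4.16), while the variant PRC1 list has a median of 0.31.

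Textbook Polycomb targets were read next. Of 25 listed, 14 were too low to test, PAX6, PAX7, SOX2 and NKX2-5 among them, and of the other 11, 6 rose and 3 fell in 4OHT siNT, beside 27% and 27.4% of tested genes, with a median of 0.68. SOX17, 1 of the 6, passed the filter only through the groups with 4OHT, and without it 5 of 10 rose and 3 fell, with a median of 0.66. CDKN2B, which encodes p15, rose by 4.01 (SE 0.11, adjusted p 6e-15), from 21.9 to 352 CPM. CDKN2A, which encodes p16 and ARF on 1 row, rose by 1.23 (SE 0.16, adjusted p 3.35e-06), from 49.0 to 115 CPM. The antisense gene CDKN2B-AS1 held 0.753 to 0.889 CPM and passed no test. BMP2, a secreted growth factor, rose by 6.34 (SE 0.16), and SOX17, an endoderm and endothelial factor, was at 0 counts in all DMSO libraries and at 0.553 CPM in 4OHT siNT, at least 10.1-fold higher against a floor of 3 counts per library. CDKN1C fell by 1.25 (SE 0.24) and TBX5, a lung and limb developmental factor, fell by 1.14 (SE 0.10).

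With siSMARCA4, 5 of the 11 targets rose and 4 fell, beside 10.4% and 13.8% of tested genes. CDKN2A fell by 0.66 (SE 0.15, adjusted p 0.00463) and CDKN2B fell by 0.66 (SE 0.09, adjusted p 6.35e-05), and both stayed above DMSO siNT (0.58 and 3.35, adjusted p 0.00501 and 1.63e-14). IGF2, an imprinted growth factor, rose by 1.76 (SE 0.27) to a mean of 265 CPM, with libraries from 117 to 446 CPM. GATA6 rose by 1.55 (SE 0.16) to 4.25 CPM. CCND2 fell by 1.53 (SE 0.32, adjusted p 0.00203), with libraries from 48.5 to 123 CPM in 4OHT siNT and 20.3 to 45.8 with siSMARCA4. TBX5 fell by 0.70 (SE 0.09). Over these 11 the median was 0.02.

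EZH2 is a known E2F target, so the E2F and RB family was read beside it, with TFDP1, MYBL2, LIN9 and FOXM1 on the same list. In 4OHT siNT 9 of the 14 listed genes fell, TFDP1, MYBL2, LIN9 and FOXM1 among them, and 3 rose. Backgrounds were 27.4% and 27% of tested genes, and the list median was -0.74. E2F2 and E2F8 are among the 9 but passed the filter only through DMSO siNT, since 4OHT siNT libraries held at most 4 and 2 counts of them, and without this pair 7 of 12 fell and 3 rose, with a median of -0.40. MYBL2, a subunit of the complex that drives mitotic genes, fell by 5.29 (SE 0.38), while E2F7, a repressor, rose by 2.38 (SE 0.19) and E2F4 by 0.33 (SE 0.07). All 10 proliferation genes fell, MKI67 at a log2 fold change of -5.68 (SE 0.32) and CDK1 at -5.44 (SE 0.33), and their summed level went from between 365 and 526 CPM in DMSO siNT to between 74.98 and 106 CPM in 4OHT siNT. The list median was -4.16, against -1.40 for EZH2. Their part in the EZH2 value was not tested.

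With siSMARCA4, 2 of the 14 genes of the E2F and RB list rose and none fell, beside 10.4% of tested genes higher and 13.8% lower. They were E2F5 at 0.53 (SE 0.10) and LIN9 at 0.52 (SE 0.14). Beside the same shares, 4 of the 10 proliferation genes rose and none fell, with a median of 0.37. CDK1 rose by 1.39 (SE 0.31, adjusted p 0.0039) and BUB1 by 0.83 (SE 0.21, adjusted p 0.00759). CDK1 then stood at 1.35 CPM against 22.2 in DMSO siNT. The summed level of the list was 73.2 to 108 CPM, which overlaps 4OHT siNT, and EZH2 itself moved by 0.07 in this contrast. PCNA made most of that sum, with means of 61.9 of 89.65 CPM in 4OHT siNT and 62.2 of 95.26 in 4OHT siSMARCA4.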

How the data were processed

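The deposited tables held estimated counts per gene and repeat for 17 libraries, which the authors made, per the methods and labels, by trimming with cutadapt 4.7, aligning to GRCh38 with HISAT2 2.2.1 and assigning multi-mapping reads with TElocal. All values were whole numbers. The 62754 gene identifiers include all 62700 of GENCODE 44, which was used for names, lengths and positions, although the methods name another Ensembl release. Genes were joined with repeat subfamilies, filtered with filterByExpr (a CPM worth 10 counts in the median library, in about as many libraries as the smallest group has) and scaled by TMM. Groups from the labels were compared with edgeR 4.0.16 (quasi-likelihood, R 4.3.3), with 1 term per group and Benjamini-Hochberg adjustment over 19473 genes. The script was tested on simulated counts. DESeq2 1.42.0, other scalings, subsets, covariates, blocks and leaving out each library were alternatives. Named genes of related lists were those with the largest called change in each direction, up to 2 per list, with the INK4 and overlapping genes always and the 3 genes most like EZH2 and EZH1, and any others were chosen after their values were seen. The members and lists were chosen with earlier results of these data known. Promoter windows came from RefSeq (GRCh38.p14). No 2 libraries of a group were duplicates. A gene of 1 list and a gene of another are not reported here, and counts, shares and medians of the lists leave them out.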

Additional observations from a re-analysis of the deposited data

Results flagged for a closer look

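The share of CBX6 among the 4 CBX genes picked out 2 libraries. In DMSO siNT (5 libraries) the one with siRNA number 4 and tag 3VM stood at 84.49%, against 87.8% to 88.2% in the others, and in 4OHT siSMARCA4 (6 libraries) the one with number 4 and tag 3V stood at 94.45%, against 90.5% to 91.8%. In each case the gap to the next library exceeded Dixon's 95% critical value for the group's range. In all, 45 groups of values were tested and 3 lay outside, where chance alone picks about 1 in 20. The CBX8 share was the highest of its group in the first library (10.1%) and the lowest in the second (2.59%). EED differed between the siNT numbers in its change from DMSO to 4OHT, with a log2 difference of 0.87 (SE 0.19) and an adjusted p of 0.0397 in edgeR, from 0.21 under number 2 to -0.65 under number 4. The labels do not say what distinguishes the siNT numbers, and in DMSO siNT the number and the V or VM tag are partly confounded.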

How the results depend on the processing

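Over 29 alternatives, EZH2 in both contrasts with DMSO siNT, and CBX2 and CBX6 in 4OHT siNT against DMSO siNT, kept direction and call. Leaving out 1 library at a time gave 4 to 4 called members in that contrast, 1 to 3 in siSMARCA4 against siNT and 3 to 3 in siSMARCA4 against DMSO. In siSMARCA4 against siNT the count was 0 with siRNA number 2 alone, 1 with number 4 alone and 1 with a replicate block on numbers 1 to 3 (2 with the whole tag as block), and in siSMARCA4 against DMSO it was 1 with number 4 alone, where CBX2 (-0.69, adjusted p 0.0746) and CBX6 (0.32, 0.077) lost their calls. Deviations from the group mean were correlated between libraries of different groups. Those with the same replicate number gave r of -0.45 to 0.531 (median 0.0493, 14 of 32 pairs over 0.1). Those with different numbers gave -0.526 to 0.606 (median -0.03, 19 of 64 over 0.1). These ranges overlap, so whether the numbers pair the libraries was not settled. The block counts in the contrasts with DMSO were 4 and 3. In siSMARCA4 against siNT, CBX6 lost its call without DMSO siNT 4-2VM, without any 1 of the 6 libraries of 4OHT siNT, and without siSMARCA4 2-1VM, 2-3V, 2-3VM or 4-3V (adjusted p 0.0296 to 0.0776 over the 17). It also lost that call with no filter (0.254) and with V or VM as covariate (0.207). In the same contrast BMI1 gained a call without DMSO siNT 4-3VM, 4OHT siNT 2-2VM or 2-3VM, or siSMARCA4 4-2V (0.0176 to 0.120 over the 17). In 4OHT siNT against DMSO, BMI1 lost its call with number 2 alone (-0.12, adjusted p 0.38). SUZ12 lost its rise in siSMARCA4 against siNT with number 2 alone (0.21, 0.135). Signs of members not called turned as follows. In 4OHT siNT against DMSO, EED was 0.18 with number 2 alone. Calls gained there were EZH1 with number 2 alone (-0.30, 0.0312), and SUZ12 (-0.33, 0.0376) and EED (-0.70, 0.00639) with number 4 alone, and CBX7 (-0.44, 0.0274) and CBX8 (-0.53, 0.00382) in VM libraries. In siSMARCA4 against siNT with number 4 alone, EZH1 was -0.04 and CBX8 -0.07, and leaving out libraries gave EZH1 -0.02 to 0.08 and CBX7 -0.04 to 0.11. In siSMARCA4 against DMSO, EED was 0.32 with number 2 alone, where it was called (adjusted p 0.0299), -0.35 with number 4 alone, -0.09 in VM libraries, -0.05 and -0.00 with the blocks and -0.08 to 0.14 leaving out libraries. BMI1 was 0.14 and CBX8 0.25 with number 2 alone, and BMI1 -0.11 to 0.02 leaving out libraries. By canonical length the EZH2 to EZH1 log2 ratio was 0.3062, -0.9495 and -0.9172 in DMSO siNT, 4OHT siNT and 4OHT siSMARCA4. The causes were not tested. CBX2 had the fewest counts, 55 at the lowest, and CBX8 the widest SE of the members, 0.21 to 0.22.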
